A study of Homo sapiens with 6 samples.

Results

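The 10 genes described here encode the peroxiredoxins and the thioredoxin system that recharges them: PRDX1 to PRDX6, TXN, TXN2, TXNRD1 and SRXN1. They were taken from the deposited gene table by symbol, which gave 10 of its 35993 genes, and each of the 10 had enough reads to be tested. RNA was sequenced from MIA PaCa-2, an established human pancreatic carcinoma cell line. The untreated group and the treated group had 3 libraries each, and treatment was 48 h with 4 µM rhCYGB, recombinant human cytoglobin, an oxygen-binding globin made in E. coli. The labels give both groups the same medium, DMEM with 10% fetal bovine and 2.5% horse serum for growth, lowered to 1% fetal bovine serum before treatment. No vehicle or inactive protein group is among these samples, so the comparison is of rhCYGB with no addition. All 6 libraries come from 1 cell line, and the labels do not say whether replicates were separate cultures. The p-values therefore measure only the spread between these libraries.

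Peroxiredoxins are abundant enzymes that reduce peroxides with a reactive cysteine, which is oxidised in the process. In the typical 2-Cys enzymes PRDX1 to PRDX4 the oxidised cysteine forms a disulfide with the partner subunit, thioredoxin reduces that disulfide, and thioredoxin reductase, a selenoprotein, returns thioredoxin to its reduced form with electrons from NADPH. Excess peroxide can oxidise the cysteine further, and sulfiredoxin (SRXN1) reverses that step. PRDX3, TXN2 and TXNRD2 are mitochondrial, PRDX4 lies in the endoplasmic reticulum, and PRDX1, PRDX2, TXN and TXNRD1 are mainly cytosolic.

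Promoter windows are shown first for TXNRD1 and SRXN1, the members with the largest rises, and for PRDX2, PRDX3 and PRDX4, the members past a 2-fold fall. TXNRD1 and SRXN1 are often described as targets of NRF2, a stress-responsive transcription factor that binds the antioxidant response element (ARE) together with a small MAF protein. The 3 motifs below were searched on both strands in the 180 bases before each RefSeq start site of build GRCh38.p14: the ARE core TGACNNNGC, the GC box GGGCGG and the CCAAT box CCAAT. Of the members, 7 were matched in the RefSeq promoter table, with 9 promoters in all, and PRDX1, PRDX6 and TXN2 were not matched. Capitals mark a match on either strand, and no matches overlapped. The windows below read 5′ to 3′ along the gene. The first pair belongs to the start sites of TXNRD1, at chr12:104215599-104215778 and chr12:104286852-104287031 on the plus strand. SRXN1 lies at chr20:653201-653380 on the minus strand, and PRDX2 (chr19:12801801-12801980, minus), PRDX3 (chr10:119178813-119178992, minus) and PRDX4 (chrX:23667313-23667492, plus) follow.
TXNRD1 upstream start: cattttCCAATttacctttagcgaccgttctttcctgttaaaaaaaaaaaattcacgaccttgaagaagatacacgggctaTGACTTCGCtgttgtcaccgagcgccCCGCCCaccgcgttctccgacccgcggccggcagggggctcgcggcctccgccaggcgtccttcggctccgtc
TXNRD1 downstream start: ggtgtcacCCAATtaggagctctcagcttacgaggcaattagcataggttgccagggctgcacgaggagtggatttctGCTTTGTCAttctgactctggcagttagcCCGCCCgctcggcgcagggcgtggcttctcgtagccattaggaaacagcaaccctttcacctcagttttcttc
SRXN1: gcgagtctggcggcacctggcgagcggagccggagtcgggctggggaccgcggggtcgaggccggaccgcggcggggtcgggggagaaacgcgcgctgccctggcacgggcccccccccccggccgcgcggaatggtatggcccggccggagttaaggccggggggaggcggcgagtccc
PRDX2: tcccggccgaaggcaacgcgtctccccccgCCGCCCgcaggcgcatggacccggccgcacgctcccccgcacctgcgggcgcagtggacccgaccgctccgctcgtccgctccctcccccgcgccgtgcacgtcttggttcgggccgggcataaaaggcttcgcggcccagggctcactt
PRDX3: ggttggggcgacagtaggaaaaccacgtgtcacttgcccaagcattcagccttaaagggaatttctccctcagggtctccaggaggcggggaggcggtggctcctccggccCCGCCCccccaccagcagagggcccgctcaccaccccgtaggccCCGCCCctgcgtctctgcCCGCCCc
PRDX4: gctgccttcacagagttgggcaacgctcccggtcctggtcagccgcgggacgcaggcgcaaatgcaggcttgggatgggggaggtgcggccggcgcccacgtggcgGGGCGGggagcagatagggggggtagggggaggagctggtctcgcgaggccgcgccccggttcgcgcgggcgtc

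The ARE core was present in both TXNRD1 windows and in none of the windows of the other 7 member promoters. It lay at positions -99 to -91 of the upstream start, on the plus strand, and at -102 to -94 of the downstream start, on the minus strand, where -1 is the base before the start. These letters occur in 8.5% of 35116 RefSeq promoter windows of the same length. Both TXNRD1 windows also held a CCAAT box, which 26.2% of all windows hold, and a GC box. The GC box was found in 8 of 9 member windows against 38.9% of all, and the SRXN1 window was the member window without it. None of the 3 motifs was found in the SRXN1 window. Bases further upstream were not searched for any gene. The search therefore cannot show that SRXN1 or another member lacks an ARE core outside its window. A match is a description of letters and not of a bound factor.

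Reads on genes summed to between 34838399 and 42271299 per library, and the 10 members took 0.319% of them in each untreated library and 0.281% to 0.285% in the rhCYGB-treated libraries. Normalised read counts are given below as CPM, the reads of a gene scaled to a common library size by TMM, and the call rule was p under 0.05 in edgeR's quasi-likelihood test after Benjamini-Hochberg adjustment over 14728 genes. Of the markers of a carcinoma line, KRT8, KRT18, KRT19 and VIM were present and EPCAM was at 0 in every library. Their sum was 11761 to 12160 CPM in untreated and 14501 to 15222 CPM in treated libraries. These markers did not move together. On average VIM rose from 8013 to 11744 CPM, KRT8 fell from 2085 to 1190 and KRT19 from 260 to 171, and KRT18 was not called. All 3 acinar markers (PRSS1, CPA1, CELA3A), INS, GCG, PTPRC, CD3E, PECAM1 and CYGB itself were also at 0. The endothelial list, carried by CDH5, summed to between 108.9 and 121.8 CPM without and between 10.5 and 13.6 CPM with rhCYGB. Of the immune list, CD68 was at 36.0 and 71.4 CPM on average, and the list ran from 34.3 to 38.0 CPM without and from 70.4 to 72.4 CPM with rhCYGB. The fibroblast list stayed between 5.17 and 6.11 CPM in all libraries. The part of CDH5 and CD68 in the results below was not tested.

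After rhCYGB 3 members rose (SRXN1, TXNRD1 and PRDX6), 6 fell (PRDX1 to PRDX5 and TXN2) and TXN was not called. Among all genes tested, 39.0% were called higher and 38.6% lower, 77.6% in either direction, so being called is common in these data. The 3 peroxiredoxins past a 2-fold decrease were PRDX2, PRDX3 and PRDX4, where 14.7% of all genes fell that far, and SRXN1 was the 1 member past a 2-fold increase, where 12.4% of all genes rose that far. The CPM values of the groups did not overlap for 9 of the 10 members, TXN being the exception, and for 79.5% of all genes tested. The median log2 fold change of the members was -0.26, and that of all genes was -0.0046. In these bulk samples fewer cells of a kind and less RNA per cell cannot be told apart.

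**Figure D1:**
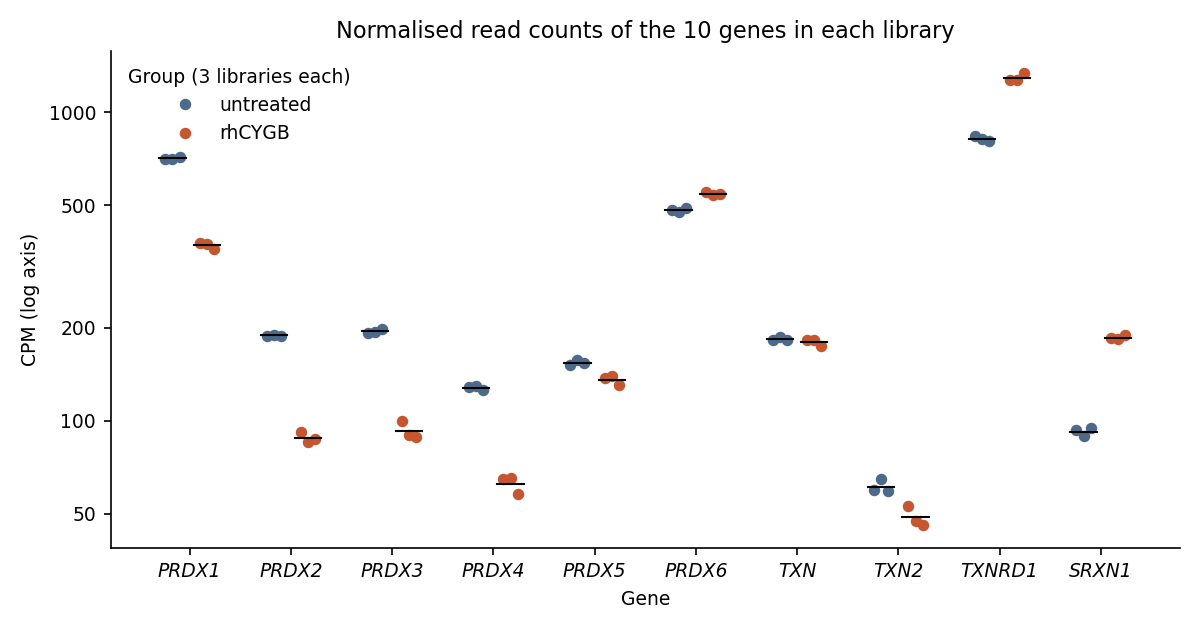
Normalised read counts (CPM, log axis) of the 10 genes in each library, with points for single libraries of the untreated and rhCYGB groups, 3 each. The groups lie apart for every gene but TXN, with PRDX1 to PRDX4 lower and SRXN1 and TXNRD1 higher after rhCYGB.

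PRDX1 (gene ID 5052, chromosome 1, 45976707 to 45988562 in the deposited table, whose build is not named) is the main cytosolic peroxiredoxin. It was at 705, 705 and 717 CPM in the untreated libraries and at 376, 374 and 360 CPM after rhCYGB. All 3 treated libraries lay far below the untreated ones, and the groups did not overlap. The mean fell from 709 ± 7.06 to 370 ± 8.90 CPM (SD, n = 3 each), a log2 fold change of -0.94 ± 0.034 (SE; adjusted p = 1.41e-12, edgeR quasi-likelihood, Benjamini-Hochberg adjusted).

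PRDX2 (ID 7001, chromosome 19, 12907637 to 12912614), a further cytosolic enzyme that is especially abundant in red blood cells, fell most of the 10. Its values were 189, 190 and 189 CPM without and 91.7, 85.5 and 87.1 CPM with rhCYGB. The untreated libraries were nearly alike, and every treated library was far lower. The log2 fold change was -1.10 ± 0.039 (SE; adjusted p = 1.03e-12, edgeR).

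PRDX3 (ID 10935, chromosome 10, 120927232 to 120938324) serves the mitochondrial matrix. It was measured at 193, 193 and 199 CPM in untreated and at 100.2, 89.7 and 88.4 CPM in treated libraries. Treated replicate 1 was the highest of its group and still well under the untreated ones. The log2 fold change was -1.07 ± 0.047 (SE; adjusted p = 1.18e-11, edgeR).

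PRDX4 (ID 10549, chromosome X, 23685610 to 23704514) reduces peroxide in the endoplasmic reticulum. Its counts were 128, 130 and 126 CPM before and 64.7, 65.4 and 57.7 CPM after treatment. Treated replicate 3 was the lowest, and the groups did not overlap. The log2 fold change was -1.03 ± 0.049 (SE; adjusted p = 2.82e-11, edgeR). The 4 typical 2-Cys genes thus fell by amounts from 0.94 to 1.10 on the log2 scale, and the 95% intervals of PRDX2, PRDX3 and PRDX4 overlapped. The interval of PRDX1 (-1.01 to -0.87) ended just above that of PRDX2 (-1.18 to -1.02). Differences between the genes were not tested.

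The other peroxiredoxins moved little. PRDX5 (ID 25824, chromosome 11, 64085593 to 64089283), the atypical 2-Cys enzyme, was at 152, 157 and 154 CPM without and 138, 140 and 130 CPM with rhCYGB. It fell by 0.18 ± 0.039 on the log2 scale (SE; adjusted p = 0.00058, edgeR). PRDX6 (ID 9588, chromosome 1, 173446474 to 173457954), the 1-Cys enzyme, which uses glutathione in place of thioredoxin, was at 483, 474 and 489 CPM and at 553, 540 and 541 CPM. It was the only peroxiredoxin that rose, by 0.18 ± 0.033 on the log2 scale (SE; adjusted p = 0.000171, edgeR). The rise of PRDX6 depended on the scaling of the libraries: with total counts and no scaling factor it was 0.01 and was not called.

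SRXN1 (ID 140809, chromosome 20, 627259 to 633844), which repairs hyperoxidised typical 2-Cys peroxiredoxins, rose most of the 10. It was at 93.0, 89.2 and 94.6 CPM in untreated and 185, 184 and 189 CPM in treated libraries. Each treated library was near 2-fold above the untreated ones. The log2 fold change was 1.01 ± 0.038 (SE; adjusted p = 2.26e-12, edgeR), with a 95% interval from 0.93 to 1.09, so that the 2-fold mark lies inside it.

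TXN (ID 7295, chromosome 9, 113006090 to 113018787), the cytosolic thioredoxin, was at 183, 187 and 182 CPM without and 183, 182 and 174 CPM with rhCYGB. These ranges overlap. The log2 fold change was -0.03 ± 0.037 (SE; adjusted p = 0.409, edgeR), with a 95% interval from -0.11 to 0.045. With total counts the same gene was at -0.20 and was called lower, while the median of all genes then stood at -0.17. TXN2 (ID 25828, chromosome 22, 36863093 to 36877687), its mitochondrial counterpart, was lower, at 59.6, 64.6 and 59.1 against 52.8, 47.4 and 45.9 CPM. Its log2 fold change was -0.33 ± 0.058 (SE; adjusted p = 9.99e-05, edgeR).

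TXNRD1 (ID 7296, chromosome 12, 104609557 to 104744085), the cytosolic thioredoxin reductase, rose from 834, 820 and 805 CPM to 1274, 1273 and 1335 CPM. No treated library came near the untreated range. The log2 fold change was 0.66 ± 0.033 (SE; adjusted p = 5.89e-11, edgeR).

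**Figure D2:**
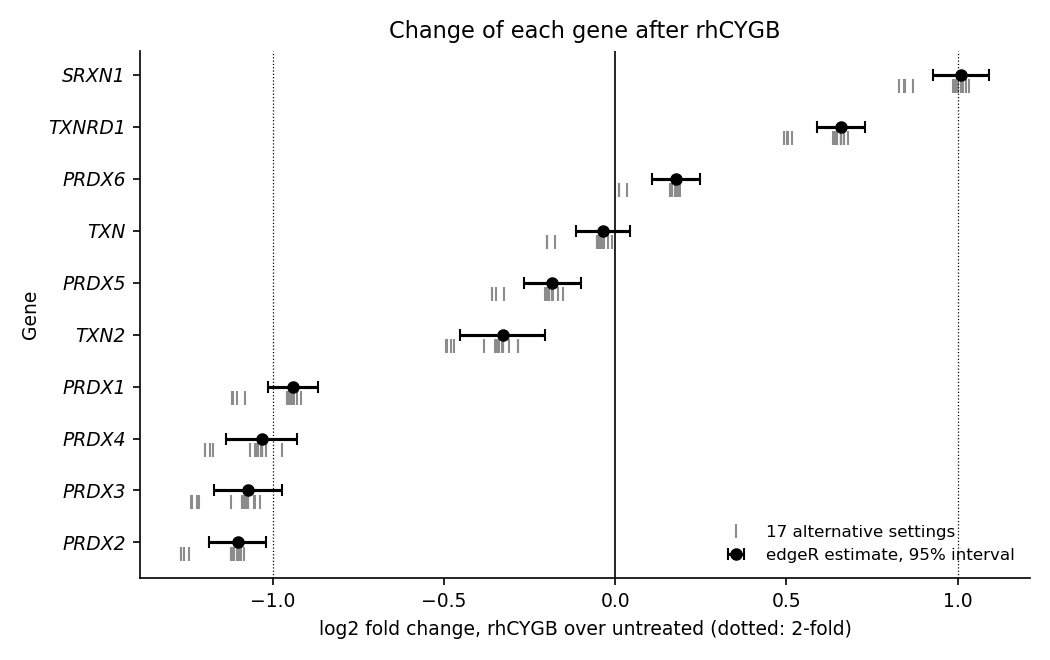
Log2 fold change of each of the 10 genes, rhCYGB over untreated, from edgeR, with 95% intervals as bars and dotted lines at 2-fold. PRDX1 to PRDX4 group around -1, and PRDX5, PRDX6, TXN and TXN2 lie between -0.33 (TXN2) and 0.18 (PRDX6). TXNRD1 (0.66) and SRXN1 (1.01) lie higher.

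The TXNRD1 increase was uneven among its transcripts. RefSeq transcripts with at least 5% of their gene's transcript counts in either group were examined, 15 in all. Of 24967 transcripts with a test of share, 598 (2.40%) changed their share of the gene at an adjusted p under 0.05 (edgeR diffSpliceDGE). Among the 10 named transcripts of genes with more than 1 transcript, 3 did so, of which TXNRD1 held a pair, NM_182743 and NM_182742. This pair passed the 5% rule only through the treated group, where its shares are high. The 3 of 10 can therefore not be weighed against the 2.40%. NM_182743 had 987, 1354 and 1143 reads in untreated and 6647, 6998 and 7715 reads in treated libraries. NM_182742 had 1402, 1445 and 1293 reads and then 7087, 7074 and 7768 reads. In both, every treated library was several-fold above every untreated one.

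The share of NM_182743 in TXNRD1 counts went from 3.45 ± 0.26% to 15.4 ± 1.26% (SD, n = 3 each; adjusted p = 0.000147, diffSpliceDGE), and that of NM_182742 from 4.13 ± 0.33% to 15.8 ± 0.87% (adjusted p = 0.000407, diffSpliceDGE). Their own log2 fold changes were 2.74 and 2.52. The main transcript, NM_182729, was at 56.1 ± 2.90% and 43.9 ± 4.24%, and NM_003330 at 34.0 ± 1.96% and 22.3 ± 2.27%, and neither share was called (adjusted p = 0.989 and 0.515, diffSpliceDGE). The libraries of the groups did not overlap in either share, and a p that misses the threshold does not show that a share was unchanged. How often shares over all transcripts fail to overlap was not counted. Shares within a gene are also bound to move against each other. The pair together held 62.1 ± 2.22 CPM of TXNRD1 in untreated and 404 ± 29.9 CPM in treated libraries, and the other 5 transcripts held 758 ± 12.5 and 890 ± 35.1 CPM. Of the mean rise of 474 CPM, 342 CPM (72.1%) lay in the pair. The pair was set apart after its rise had been seen, so a large part is favoured by that choice. The value is a description only. NM_182729, NM_182742, NM_182743 and NM_003330 share their outer coordinates in the deposited table, chromosome 12, 104680810 to 104744085. Reads were therefore divided among them by inner structure alone. That division is an estimate by the authors' assembler, and its error was not measured. Of the 7 TXNRD1 transcripts, 6 begin at the downstream start and 1 at the upstream start, 71253 bases away, a spacing that the RefSeq start sites of the windows above share.

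PRDX1 gave the other changed share. NM_181697, its main transcript, fell with the gene, from 23278, 28792 and 26581 reads to 11351, 9975 and 10412 reads. NM_001202431 had 2613, 2361 and 2098 reads without and 2200, 2140 and 2252 reads with rhCYGB, ranges that overlap. Its share was 8.20 ± 1.52% in untreated and 16.6 ± 0.79% in treated libraries (adjusted p = 0.0208, diffSpliceDGE), while its own log2 fold change was 0.00 (adjusted p = 0.985, edgeR). This share call was lost in 6 of 10 alternatives, 5 of them leaving out 1 library, with adjusted p from 0.0645 to 0.145 (diffSpliceDGE). It was lost without untreated replicate 2 or 3 and without any of rhCYGB replicates 1, 2 and 3. For PRDX5 the shares of NM_012094 (55.7% and 60.9%) and NM_001358516 (35.9% and 30.0%) were not called. The groups did not overlap in either share, which was not counted over all transcripts. NM_006793 held 99.1% and 96.8% of PRDX3 reads and NM_003329 held 99.8% of TXN reads in both groups, and neither share was called. The other 5 members list 1 transcript each, NM_005809 for PRDX2, NM_006406 for PRDX4, NM_004905 for PRDX6, NM_012473 for TXN2 and NM_080725 for SRXN1, so they have no share to test.

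**Figure D3:**
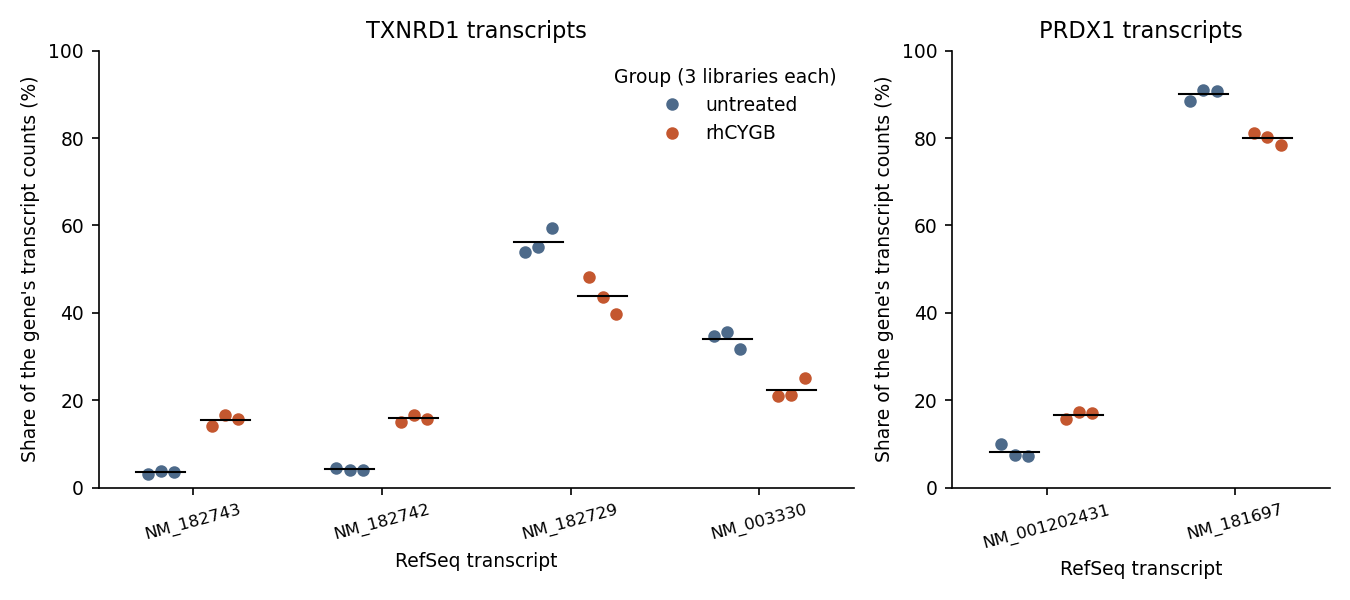
Share of each transcript in its gene's transcript counts (%), for the named transcripts of TXNRD1 and PRDX1, with 1 point per library, 3 libraries per group and a line at the mean. NM_182742 and NM_182743 of TXNRD1 go from 3.45% to 4.13% up to about 15.4% to 15.8%, and NM_001202431 of PRDX1 from 8.20% to 16.6%.

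Levels of different genes were compared per length, as FPKM. These values carry no TMM factor, so changes between the groups are on another scale than in CPM. The median log2 fold change of all genes was -0.15 with limma on log2(FPKM + 0.1), against -0.0046 in the main fit. In untreated cells the order was PRDX1 (693 FPKM), PRDX6 (266), TXN (233), TXNRD1 (207), PRDX2 (191), PRDX5 (185), PRDX4 (125), PRDX3 (117), TXN2 (42.6) and SRXN1 (34.0). No neighbouring pair in this order overlapped between libraries. After rhCYGB the order was PRDX1 (319 FPKM), TXNRD1 (294), PRDX6 (268), TXN (203), PRDX5 (144), PRDX2 (79.2), SRXN1 (61.2), PRDX4 (54.4), PRDX3 (49.8) and TXN2 (30.3), and only PRDX4 and PRDX3 overlapped. SRXN1 thus moved from the lowest level to above PRDX3 and PRDX4.

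The 6 peroxiredoxins together summed to 1559, 1569 and 1601 FPKM in untreated and to 941, 897 and 906 FPKM in treated libraries. PRDX1 supplied 44.0 ± 0.17% of that sum without and 34.9 ± 0.23% with rhCYGB (SD, n = 3 each). The shares of PRDX2, PRDX3 and PRDX4 were 12.1%, 7.44% and 7.92% without and 8.66%, 5.44% and 5.95% with it. PRDX6 took 16.9 ± 0.22% and then 29.3 ± 0.56%, and PRDX5 11.7 ± 0.19% and 15.7 ± 0.33%. The shares of all 6 were separate between the groups, and they are given as a description with no test.

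**Figure D4:**
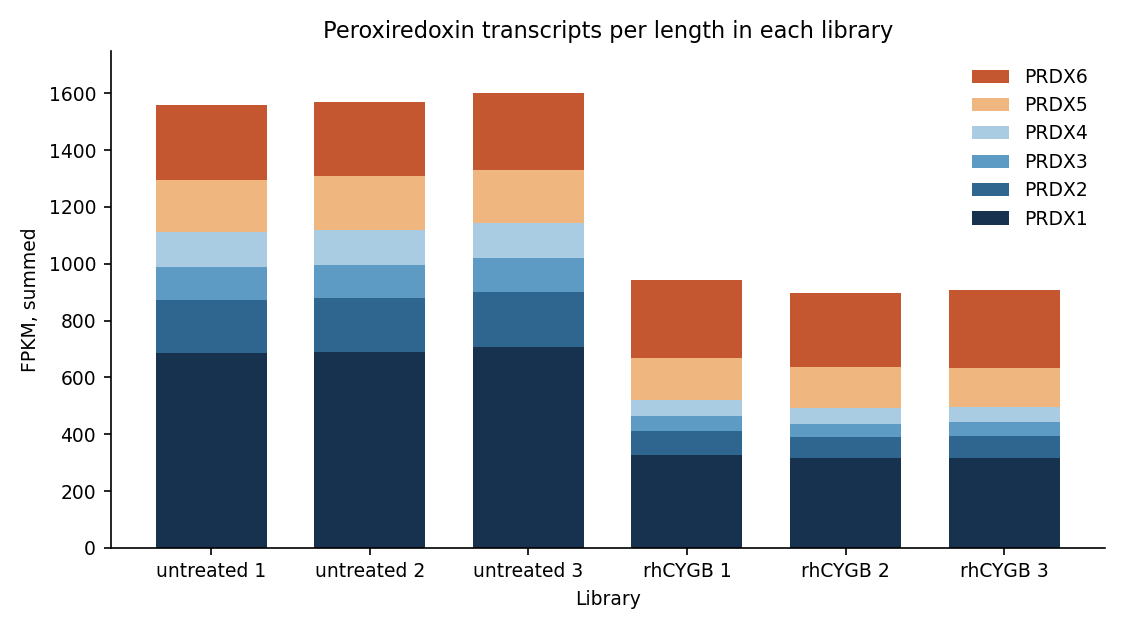
FPKM of the 6 peroxiredoxins, stacked in each of the 6 libraries. The stack falls from a mean of 1576 ± 22.2 to 915 ± 23.6 FPKM (SD, n = 3 each), while the PRDX6 layer is at 266 and 268 FPKM on average and its share grows from 16.9% to 29.3%. FPKM values carry no TMM factor.

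Ratios within a library do not depend on its scaling. SRXN1 reads per read of PRDX1 to PRDX4 were 0.0765, 0.0732 and 0.0769 in untreated and 0.292, 0.299 and 0.319 in treated libraries. On the log2 scale the ratio went from -3.73 ± 0.039 to -1.72 ± 0.066, a difference of 2.01 or 4.01-fold. PRDX1 to PRDX4 reads per read of PRDX5 and PRDX6 went from 1.91, 1.93 and 1.92 to 0.916, 0.903 and 0.883. TXNRD1 reads per TXN read went from 4.56, 4.39 and 4.42 to 6.96, 6.98 and 7.67. In none of the 3 ratios did the groups overlap. Each had an exact two-sided permutation p of 0.10, unchanged by adjustment over the 3, which is the smallest p that 3 against 3 libraries allow. The SRXN1 ratio was chosen with the direction of its parts known, and the last pair of ratios after the values of their genes had been seen.

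Other genes of the pathway were taken from lists, 68 of whose 71 genes could be tested. Of these 25 rose and 37 fell, with a median log2 fold change of -0.26, where 39.0% of all genes tested rose and 38.6% fell. The counts of every list below are to be read against these shares, and a count near them says nothing about the list. TXNRD2 (-0.27), TXNRD3 (-1.19) and TXNIP (-0.59), an inhibitor of thioredoxin, all fell, so TXNRD1 was the 1 reductase of 3 that rose. TXNRD2 went from 30.0 ± 0.81 to 24.9 ± 2.23 CPM (SD, n = 3 each; adjusted p = 0.00182, edgeR). PRDX3, TXN2 and TXNRD2, whose proteins are mitochondrial, were therefore all lower, by 1.07, 0.33 and 0.27 on the log2 scale. Enzymes that draw electrons from thioredoxin fell in 6 of 7, with a median of -1.03. They include the ribonucleotide reductase subunits RRM1 (-1.03) and RRM2 (-2.20) and the methionine sulfoxide reductases MSRB1 (-0.80), MSRB2 (-1.37) and MSRB3 (-1.46), while MSRA was at 0.03 and was not called.

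Among 15 thioredoxin-fold proteins 3 rose and 9 fell, and the 12 called in either direction stand beside 77.6% of all genes. TXNL1 (0.78), a proteasome-bound thioredoxin, and NXN, or nucleoredoxin (0.95), rose most, and the endoplasmic reticulum proteins TXNDC5 (-1.10), TMX1 (-0.99) and TMX4 (-0.97) fell most. Of the 7 genes listed for oxidative folding, 5 were lower, among them P4HB (-0.47), PDIA6 (-0.57) and QSOX1 (-1.23). ERO1A (0.43) and ERO1B (0.30) were higher. Of 4 glutaredoxins, GLRX2 (0.86) and GLRX3 (0.12) rose, and GLRX (-1.16, at about 1 CPM) and GLRX5 (-0.73) fell.

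Selenoprotein synthesis, on which TXNRD1 depends for its selenocysteine, rose in 5 of 7 genes with a median of 0.40. SEPHS2, which makes the selenium donor, went from 73.7 ± 1.74 to 254 ± 4.19 CPM (SD, n = 3 each), a log2 fold change of 1.79 ± 0.038 (SE; adjusted p = 5.25e-15, edgeR). PSTK (1.46), SECISBP2L (0.82), SECISBP2 (0.40) and EEFSEC (0.31) rose too, and SEPHS1 (-0.38) and SEPSECS (-0.23) fell. NADPH-producing enzymes gave 2 higher and 3 lower of 6, with IDH2 (-1.15), NNT (-0.61) and PGD (-0.48) lower, and ME1 (0.16) and IDH1 (0.13) higher.

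Of the other peroxide and superoxide enzymes, 7 of 10 were tested, and 3 rose and 3 fell, near the 39.0% and 38.6% of all genes. GPX4 (0.46), GPX1 (0.38) and GPX8 (0.16), which are glutathione peroxidase family members, rose, and CAT (-1.06), SOD1 (-0.58) and SOD2 (-0.33) fell. The sestrins gave SESN2 at 3.19, from 35.8 ± 2.85 to 327 ± 4.68 CPM, SESN1 at 0.54, and SESN3 at -1.56. SESN3 had only 38, 11 and 14 reads in untreated and 6, 4 and 9 reads in treated libraries, with untreated replicate 1 far the highest. All 6 NRF2 regulators rose, with a median of 1.26: NFE2L2, which encodes NRF2 (1.45), its repressor KEAP1 (0.48), the competing factor BACH1 (1.04), and the small MAF genes MAFF (3.01), MAFG (1.95) and MAFK (1.07). The 3 proliferation markers MKI67 (-2.0), TOP2A (-1.51) and PCNA (-2.41) fell beside PRDX1 to PRDX4, and their part in the members' changes was not tested.

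**Figure D5:**
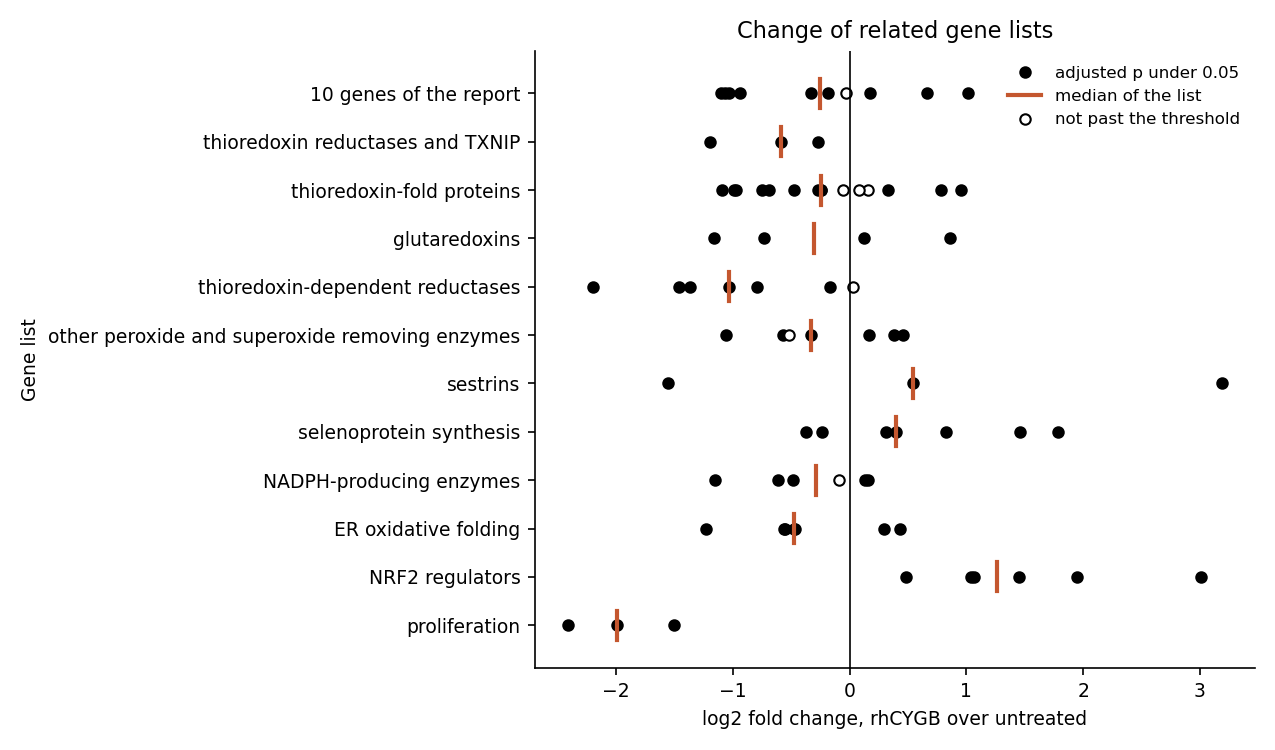
Log2 fold change (rhCYGB over untreated) of every tested gene of each list, 1 point per gene, filled where the adjusted p is under 0.05, with a bar at the list's median. The medians of the NRF2 regulators (1.26), sestrins (0.54) and selenoprotein synthesis (0.40) lie to the right of 0, and those of the thioredoxin-dependent reductases (-1.03) and proliferation markers (-2.0) to the left.

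Some member loci overlap other genes of the deposited table, and whether counting used strand is not given in the sources used here. PRDX1 overlaps MMACHC by 2348 bases, and MMACHC, at 18.1 CPM in untreated cells, changed by -1.21. TXNRD1 overlaps EID3 by 1467 bases (8.64 CPM, -1.20) and RPL18AP3 by 624 bases (31.3 CPM, 0.24), and PRDX5 overlaps TRMT112 by 476 bases (90.1 CPM, 0.47). The 12 pseudogene copies of members held at most 4 reads in any library, and how reads that match several copies were shared is not stated.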

How the data were processed

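RNA-seq was analysed for 6 libraries, 3 untreated and 3 rhCYGB, grouped by their GEO labels. Libraries were made with a stranded mRNA kit and sequenced on a NovaSeq. Per the submitters' processing notes, FastQC 0.11.7, HISAT2 2.1.0 and StringTie 2.1.3b were used. The build those notes name is a mouse one, which human genes cannot come from, and the deposited starts of 10 of 10 members differ from GRCh38, so deposited coordinates are given with no build and sequences only from GRCh38.p14. The authors deposited read counts per gene and per transcript, whole and not normalised, and FPKM values, scaled to transcript length and depth. The 12 deposited TPM columns were not used.

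Counts were tested with edgeR 4.0.16 in R 4.3.3 (filterByExpr, TMM, quasi-likelihood test, p adjusted by Benjamini-Hochberg over 14728 genes; no block). Of 35993 genes, 15205 had 0 counts everywhere and 6060 more were filtered out. A fold change of 2 served as a second rule. Transcript tests covered 32577 of 81203 transcripts, and diffSpliceDGE tested 24967 for a change of share. The coefficient of variation between replicates was 5.48%, and 3 counts, the limit a count of 0 allows, equal 0.0669 to 0.0902 CPM. Such limits cover counting error only, since reads carry no molecular identifiers. No libraries were copies of one another. Alternatives used DESeq2 1.42.0 and limma 3.58.1, and the fits were tested on simulated data. There diffSpliceDGE missed most of the changed transcripts, finding 0 of 104 changed by 1 on the log2 scale and 15 of 96 changed by 2. A share not called may therefore still have changed. In the same data diffSpliceDGE also called 11 of 28606 unchanged transcripts, beside the 15 found. A share that was called may therefore be a false call. The text names all 10 members, their transcripts with at least 5% of the gene's counts, and genes of the lists, markers and overlapping genes; 1 list gene is not reported here. The members, lists and tests were chosen with earlier results of these data known.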

Additional observations from a re-analysis of the deposited data

How the results depend on the processing

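PRDX1 to PRDX4 were all lower at adjusted p under 0.05 in 17 of 17 alternatives, and the members called stayed between 2 and 3 higher and between 4 and 7 lower. Over 20 single genes and transcripts, 248 of 269 alternative values kept direction and side of the threshold, 13 lost the call, 5 gained it and 3 reversed. The number of members up by 2-fold, 1 as reported, was 0 with DESeq2's size factors, upper-quartile factors, total counts, DESeq2's Wald test, limma on log2(FPKM + 1), limma on log2(FPKM + 0.1) and at least 10 counts in every library, and 0 to 1 when 1 library was left out (0 without untreated replicate 2). SRXN1 stood at 0.83 to 1.03 in all of them. The members' median log2 fold change was -0.40 with upper-quartile factors, -0.42 with total counts, -0.42 with limma on log2(FPKM + 1), -0.43 with limma on log2(FPKM + 0.1), and -0.28 to -0.22 with 1 library left out. The median of all genes shifted to -0.15 with upper-quartile factors, -0.17 with total counts and -0.15 with limma on log2(FPKM + 0.1). PRDX6 lost its call under these scalings and limma on log2(FPKM + 1) (0.01 to 0.04), and TXN became lower (-0.20 to -0.18). Against a fold of 1.5 (edgeR's glmTreat), 5561 genes were called in place of 11427, 12 pathway genes were higher and 19 lower, and PRDX5, PRDX6 and TXN2 were not called.

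Share changes of the TXNRD1 pair were called in all 10 alternatives. These include limma on ratios of a transcript to the rest of its gene (adjusted p = 0.0266 and 0.0341), an alternative chosen after seeing the data. The pair was named only through its high shares in the treated group, and the alternatives reuse the same libraries. Their calls are therefore no separate support for the change. Limma on ratios lost the NM_001202431 call (adjusted p = 0.17), and NM_003330 was called with at least 10 counts in every library (adjusted p = 0.0158, diffSpliceDGE). The share of NM_003329, which holds nearly all TXN reads, changed by -0.000053 on the log2 scale and reversed with limma on ratios (1.21) and with 1 library left out, where it ranged from -0.000879 to 0.00155, never past the threshold. The number of transcripts over the whole table with a changed share was 307 with the replicate block, 928 with limma on ratios and 968 with at least 10 counts, against 598. The SRXN1 to PRDX1-4 difference was 1.97 to 2.03 in 9 alternatives, with exact permutation p from 0.10 to 0.25. Same-numbered libraries did not deviate together (correlations -0.048, 0.007 and 0.006 over 14728 genes), and differently numbered ones ran from -0.055 to 0.054. With 3 libraries per group these values cannot decide whether the replicate numbers pair the samples. In the fit with the replicate block 11351 genes were called, with 3 members higher and 6 lower. The causes of these shifts were not tested.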

Other observations

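TXNRD1 and PRDX3 each listed a minor transcript, under 5% of its gene, that was chosen after its values were seen. NM_001093771, the 1 TXNRD1 transcript that begins at the upstream start, had 228, 13 and 120 reads in untreated and 9, 9 and 11 reads in treated libraries. Its untreated values span a wide range, and its change was not called (adjusted p = 0.0612, edgeR quasi-likelihood, Benjamini-Hochberg adjusted). NR_126102, a non-coding transcript of PRDX3, held 0.051 ± 0.088% of PRDX3 counts in untreated and 2.22 ± 0.85% in treated libraries (SD, n = 3 each), and its share was called changed (adjusted p = 0.0371, edgeR diffSpliceDGE) while its own count was not (adjusted p = 0.136, edgeR). With limma on ratios that share had an adjusted p of 0.0808.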
